A study of Mus musculus with 54 samples.

Results

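Mitochondrial ribosomal protein genes were followed across livers of mice that lacked folliculin in hepatocytes. The members are the protein-coding genes of the RNA-seq table whose symbol begins with Mrpl or Mrps followed by a digit. The rule found 76 of the 13815 genes in the table, 46 with an Mrpl symbol and 30 with an Mrps symbol. One of them, Mrps36-ps1, carries a pseudogene-style symbol but is listed as protein-coding. A further 3 rows with matching symbols are listed as pseudogenes and were not counted. The rule used no measured value.

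The mitochondrial ribosome has a large and a small subunit, whose RNAs are encoded in mitochondrial DNA and whose proteins are all encoded in the nucleus, made in the cytosol and imported. It translates the few messenger RNAs of the mitochondrial genome, which encode membrane subunits of the respiratory chain and of ATP synthase. Some of its proteins have counterparts in bacterial ribosomes and others were added during mitochondrial evolution. Symbols do not always give the subunit: the products of Mrps18a and Mrps30 sit in the large subunit of the mammalian particle, and the product of Mrps36 is now assigned to the oxoglutarate dehydrogenase complex of the citric acid cycle. Hepatocytes are rich in mitochondria.

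Folliculin, the product of Flcn, acts with the Rag GTPases so that mTORC1 can phosphorylate TFE3, a transcription factor of lysosomal and metabolic genes, and hold it out of the nucleus. All mice carried floxed Flcn alleles (Flcn lox/lox) and received an adeno-associated virus with the TBG promoter, which is active in hepatocytes, so that only hepatocytes were targeted. The virus carried GFP in the Control groups and Cre in LiFKO, and the groups labelled DKO were Flcn lox/lox;Tfe3-/Y mice, which lack Tfe3 in every cell, given the Cre virus at the same dose of 1.5e11 genome copies. RNA was sequenced from 5 groups of 3 libraries, with mice fed for 17 to 18.5 weeks and then fasted 4 to 6 hours: the normal chow groups were Control and LiFKO, and the groups on AMLN, a diet used to induce steatohepatitis, were Control, LiFKO and DKO. TFE3 ChIP-seq covered freely fed Control and LiFKO mice on chow (4 ChIP libraries each), and Control and LiFKO mice after 9 days of FPC diet with or without a second virus for HA-nSREBP-1c under a liver ApoE/AAT promoter (3 ChIP libraries each). The second virus, called 1c below, was given at 1.0e11 genome copies beside 1.5e11 of the first, mice without it received 2.5e11 of the first, and its HA tag was also immunoprecipitated. No DKO group was on chow and no RNA-seq group lacked Tfe3 alone. The DKO mice were a separate line, so that line and genotype cannot be told apart. Ages beyond the weeks of diet are not given in the sources used here, and whether the libraries came from separate mice is not stated.

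Expression values are the authors' log2 values, normalized so that all libraries share nearly the same distribution, with library medians of 9.791 to 9.799. One log2 unit is a 2-fold difference. The files used hold no counts, so the depth behind each value is unknown. Flcn read 11.33, 11.55 and 11.44 in chow Control and 10.55, 10.14 and 10.53 in chow LiFKO. On AMLN diet Flcn read 10.98, 10.92 and 11.06 in Control, 10.25, 10.56 and 10.43 in LiFKO and 9.12, 9.45 and 9.91 in the libraries labelled DKO, so that each Cre group lay below its Control. Tfe3 read 9.92, 10.02 and 10.07 in AMLN LiFKO and 10.20, 9.88 and 9.89 in the libraries labelled DKO, a log2 difference of -0.01 (SE 0.12, adjusted p = 0.967 in limma), so that this gene's value does not check the DKO label. Which part of Tfe3 is deleted is not given in the sources used here. All 10 hepatocyte markers were measured, with a mean log2 value of 17.0 to 17.6 per library. In bulk tissue, fewer cells of a type and less RNA per cell cannot be told apart.

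Loss of Flcn on chow raised a larger share of mitoribosomal genes than of all genes, and the share that fell was no larger than among all genes. Of the 76, 20 rose and 8 fell in LiFKO against Control (limma, Benjamini-Hochberg adjusted p under 0.05 over all genes), which is 26.3% and 10.5% of them. Over all 13815 genes the shares were 12.5% for rises and 13.2% for falls. The median log2 difference of the 76 genes was 0.05, with quartiles of -0.11 and 0.29, and that of all genes was -0.05. The 3 libraries of LiFKO lay wholly above those of Control in 29 members and wholly below in 11, against 18.5% and 23.3% of all genes. The count of 28 fell to 16 without LiFKO replicate 3 and to 17 without Control replicate 1, and 13 of the 28 calls held whichever of the 6 libraries was left out. Over all genes the 3545 calls fell to 2908 and 2746 in the same fits. Without LiFKO replicate 3 the members' share called in either direction was thus near that of all genes. In that fit 12 members rose and 4 fell, and 49% of the calls over all genes were rises. The labels give no pairing, but same-numbered chow libraries had weak positive residual correlations and were read as possible pairs. With the replicate number as a block within diet, Mrps33 (limma adjusted p = 0.0655) and Mrps6 (adjusted p = 0.0756) were no longer called.

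**Figure D1:**
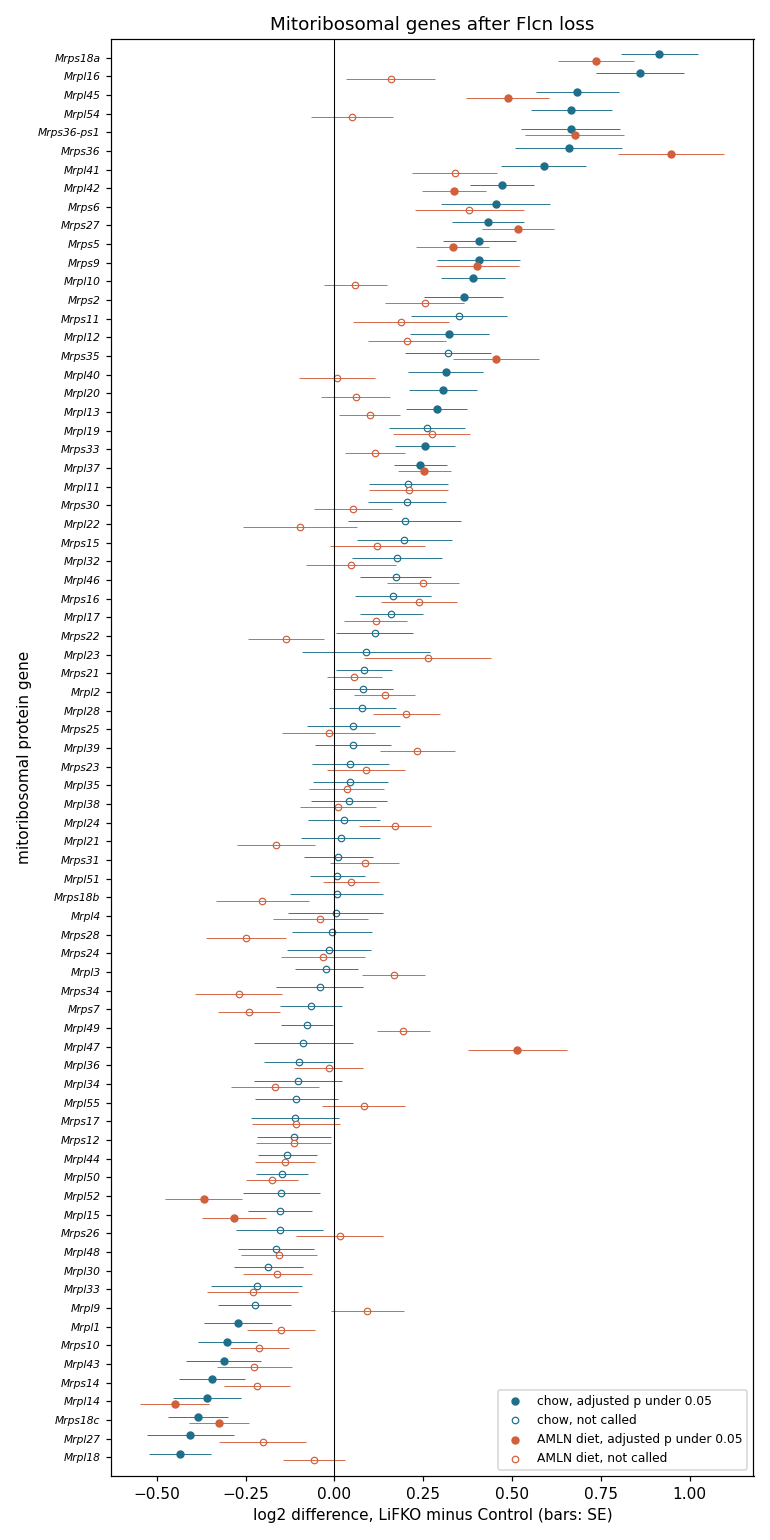
Log2 difference of LiFKO minus Control for each of the 76 members on chow (blue) and on AMLN diet (orange), with the moderated standard error as bars; filled points were called in limma and open points were not. The members spread from -0.44 to 0.92 on chow, with Mrps18a at the top and Mrpl18 at the bottom.

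The member with the largest rise on chow was Mrps18a, one of a trio of mammalian genes related to a single bacterial protein of the small subunit. It lies on chromosome 17 and its values were 10.49, 10.40 and 10.61 in chow Control and 11.36, 11.32 and 11.56 in chow LiFKO. The groups did not overlap, and the log2 difference was 0.92 (SE 0.11, n = 3 a group, limma adjusted p = 3.34e-05). Its relative Mrps18c, the small-subunit protein closest to the bacterial one, moved the opposite way. Mrps18c read 10.36, 10.26 and 10.50 in Control and 9.99 in each LiFKO library, a log2 difference of -0.39 (SE 0.08, adjusted p = 0.00371). The remaining relative, Mrps18b, read 9.75, 9.79 and 9.56 in Control and 9.49, 9.75 and 9.88 in LiFKO. Those groups overlapped and the log2 difference was 0.01 (SE 0.13, adjusted p = 0.981). The 3 paralogs thus went up, went down and did not pass the test.

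Among large-subunit proteins, Mrpl16, whose bacterial counterpart lies close to the tRNA binding sites, read 10.57, 10.39 and 10.69 in chow Control and 11.22, 11.44 and 11.57 in chow LiFKO. All LiFKO libraries were higher, by 0.86 on the log2 scale (SE 0.12, adjusted p = 0.000177). Mrpl45 lies at the mouth of the exit tunnel, where the ribosome is held to the inner membrane. Its values were 10.47, 10.48 and 10.63 in Control and 11.14, 11.21 and 11.28 in LiFKO, a log2 difference of 0.68 (SE 0.12, adjusted p = 0.000622). Mrpl54, a large-subunit protein without a bacterial counterpart, read 9.75, 9.49 and 9.45 in Control and 10.08, 10.40 and 10.21 in LiFKO. Again no libraries overlapped, with a log2 difference of 0.67 (SE 0.11, adjusted p = 0.000638). Mrpl42 (0.47, adjusted p = 0.00149) and Mrpl41 (0.59, adjusted p = 0.00232), also proteins of the mitochondrial large subunit without bacterial counterparts, rose as well. Mrpl12, the stalk protein that recruits translation factors and can bind the mitochondrial RNA polymerase, rose by less, with 0.32 (SE 0.11, adjusted p = 0.0437), and its call held in 1 of 6 fits with a library omitted. Mrpl10, which holds Mrpl12 on the stalk, differed by 0.39 (adjusted p = 0.00527) and held in all 6.

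Among genes with small-subunit symbols, Mrps36 read 8.53, 8.55 and 8.74 in chow Control and 9.26, 9.38 and 9.15 in chow LiFKO, so that all LiFKO libraries were higher. The log2 difference was 0.66 (SE 0.15, adjusted p = 0.00489). Mrps36-ps1 differed by 0.67 (SE 0.14, adjusted p = 0.00287). The pair has closely similar names, and whether the authors' counting split reads between them is not given in the sources used here, so both values are uncertain. Mrps27, a pentatricopeptide repeat protein of the small subunit, read 10.09, 9.91 and 10.02 in Control and 10.36, 10.36 and 10.59 in LiFKO. Its groups did not overlap, and the log2 difference was 0.43 (SE 0.10, adjusted p = 0.00585). Mrps5, Mrps9, Mrps2, Mrps6 and Mrps33 were the other small-subunit genes that rose, by 0.25 to 0.45. Mrps30, a large-subunit protein in spite of its symbol, differed by 0.21 (SE 0.11, adjusted p = 0.197) and did not pass the test.

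The 8 members that fell on chow were Mrpl18, Mrps18c, Mrpl14, Mrps14, Mrps10, Mrpl27, Mrpl43 and Mrpl1, and 7 of them have bacterial counterparts. The largest decrease was in Mrpl18, which read 10.93, 11.07 and 11.18 in Control and 10.75, 10.57 and 10.54 in LiFKO. Every LiFKO library was lower, and the log2 difference was -0.44 (SE 0.09, adjusted p = 0.00213). Mrpl14, a protein of the face that meets the small subunit, read 11.20, 10.97 and 10.94 in Control and 10.62, 10.72 and 10.68 in LiFKO, a log2 difference of -0.36 (SE 0.10, adjusted p = 0.0134). Mrpl27, whose bacterial counterpart reaches into the peptidyl transferase centre, differed by -0.41 (SE 0.12, adjusted p = 0.0246). Mrps14 (-0.35, adjusted p = 0.0136) and Mrps10 (-0.30, adjusted p = 0.0154) belong to the small subunit. Mrpl43 lost its call whichever of the 6 libraries was omitted.

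On AMLN diet, loss of Flcn raised 11 members and lowered 4, 14.5% and 5.26% of the 76, against 10.1% and 9.63% of all genes (19.7% in either direction). The median log2 difference was 0.06 over the members and -0.02 over all genes. LiFKO lay wholly above Control in 19 members and wholly below in 13, against 17.2% and 18.3% of all genes. The 15 calls became 9 when only the 6 libraries of this comparison were fitted. They became 8 without LiFKO replicate 3, 8 without Control replicate 1 and 9 without Control replicate 2, and 6 of the 15 held in all 6 fits. Over all genes the 2722 calls became 2114 with only the 6 libraries fitted. Without those single libraries, in the same order, they became 2116, 2074 and 2170. In each of these fits the members' share called lay below that of all genes. Among cell markers, 2 of 11 macrophage, 1 of 7 endothelial and 1 of 10 hepatocyte markers rose, and 1 of 7 stellate, 1 of 5 cholangiocyte and 1 of 6 erythroid markers fell. Macrophage markers averaged 10.13 to 10.36 per library in Control and 9.91 to 10.82 in LiFKO, and endothelial markers 10.59 to 10.77 and 10.91 to 11.12. Their part in the members' values was not tested. This comparison shares no library with the one on chow. Of the members that rose, 9 did so on both diets, 45% of those on chow and 81.8% of those on AMLN diet. The same shares over all genes were 53.8% and 66.6%. The 9 members were Mrps18a, Mrps36, Mrps36-ps1, Mrps27, Mrpl45, Mrpl42, Mrps9, Mrpl37 and Mrps5. Mrpl14 and Mrps18c fell on both diets. They are 25% of the members that fell on chow and 50% on AMLN diet, against 39.6% and 54.2% over all genes.

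Mrps18a read 10.71, 10.89 and 10.57 in AMLN Control and 11.57, 11.28 and 11.52 in AMLN LiFKO, again without overlap. The log2 difference was 0.74 (SE 0.11, limma adjusted p = 0.000277). Mrps36 had the largest difference on this diet, with 8.09, 8.51 and 8.37 in Control and 9.45, 9.09 and 9.27 in LiFKO. That is 0.95 on the log2 scale (SE 0.15, adjusted p = 0.000499), and Mrps36-ps1 differed by 0.68 (adjusted p = 0.00335). Mrps27 read 9.97, 9.68 and 9.97 in Control and 10.40, 10.42 and 10.35 in LiFKO, a log2 difference of 0.52 (SE 0.10, adjusted p = 0.00233). Mrpl45 rose by 0.49 (SE 0.12, adjusted p = 0.00852) and the small-subunit protein Mrps35 by 0.45 (SE 0.12, adjusted p = 0.0155). Mrpl14 read 11.26, 11.24 and 11.30 in Control and 10.72, 11.01 and 10.72 in LiFKO, below Control in every library. It had the largest decrease, -0.45 (SE 0.10, adjusted p = 0.00418). Mrps18c differed by -0.33 (SE 0.08, adjusted p = 0.0134), Mrpl52 by -0.37 (adjusted p = 0.0277) and Mrpl15 by -0.28 (adjusted p = 0.0379). Mrps18b differed by -0.20 (SE 0.13, adjusted p = 0.319), Mrpl12 by 0.20 (SE 0.11, adjusted p = 0.224) and Mrps30 by 0.05 (SE 0.11, adjusted p = 0.788), none of which passed the test.

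**Figure D2:**
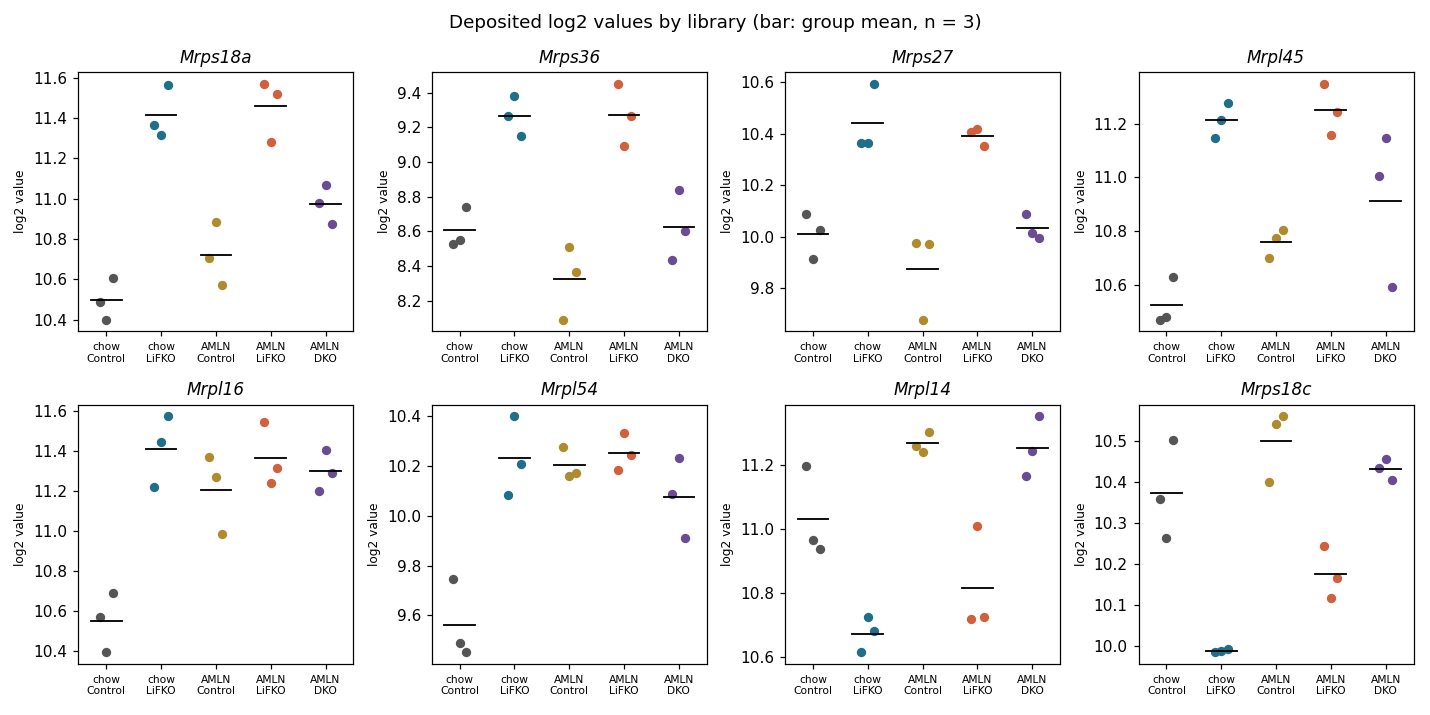
Deposited log2 values of 8 members in each of the 15 libraries, with points for libraries and a bar for the mean of 3; each panel has its own axis, which does not start at 0. Mrps18a, Mrps36, Mrps27 and Mrpl45 were higher in LiFKO on both diets, Mrpl14 and Mrps18c were lower on both, and Mrpl16 and Mrpl54 stood apart in chow Control.

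AMLN diet itself raised 8 members and lowered 1 in Control mice, against 11.2% and 11.6% of all genes (22.8% in either direction), with a member median of 0.10 and an all-gene median of -0.04. This comparison shares its chow Control libraries with the chow LiFKO comparison. Mrpl54 read 10.28, 10.16 and 10.17 in AMLN Control, all above the chow Control values of 9.75, 9.49 and 9.45, a log2 difference of 0.64 (SE 0.11, limma adjusted p = 0.00194). Mrpl16 read 11.37, 11.27 and 10.98 in AMLN Control, also above every chow Control library, a log2 difference of 0.66 (SE 0.12, adjusted p = 0.00284). Mrps28, a small-subunit protein, differed by 0.46 (SE 0.11, adjusted p = 0.0106). Mrpl41, Mrpl10, Mrps6, Mrps34 and Mrpl48 rose by 0.28 to 0.47. The member that fell was Mrpl47, a large-subunit protein, with 9.93, 9.82 and 9.67 in chow Control and 8.96, 9.20 and 9.59 in AMLN Control (-0.56, SE 0.14, adjusted p = 0.0115). The count of 9 became 4 with only the 6 libraries fitted, 5 without AMLN Control replicate 1, and 4 without chow Control replicate 1 or 2, and Mrpl16, Mrpl54 and Mrps28 held in all 6 fits. Over all genes the 3154 calls became 2765, 1950, 1975 and 1938 in these changed fits, in that order. Each time the members' share called stayed below that of all genes. Markers of other cells moved in the same comparison: 5 of 11 macrophage and 4 of 7 stellate markers rose, and of 10 hepatocyte markers 5 fell and 1 rose. Macrophage markers averaged 9.08 to 9.99 per library in chow Control and 10.13 to 10.36 in AMLN Control, and stellate markers 8.87 to 9.28 and 9.44 to 10.03. Their part in the members' values was not tested.

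In mice without hepatocyte Flcn, the diet changed 1 member. Mrpl27 rose, from 10.08, 9.83 and 9.66 in chow LiFKO to 10.26, 10.51 and 10.29 in AMLN LiFKO (0.49, SE 0.12, limma adjusted p = 0.0414), against 1.58% of all genes that rose and 2.16% that fell (3.74% in either direction). Omitting 1 library at a time, it held in 1 of 6 fits, and was lost without any AMLN LiFKO library and without chow LiFKO replicates 2 or 3. Mrpl16 differed by -0.05 (SE 0.12, adjusted p = 0.886) and Mrpl54 by 0.02 (SE 0.11, adjusted p = 0.943) between the diets in LiFKO. The largest negative difference was in Mrpl38, with -0.33.

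The test of whether the Flcn effect differed between diets called no member, against 0.282% of all genes called higher and 0.76% called lower. At an unadjusted p under 0.05 it had 4 members higher and 3 lower. No share of all genes at that threshold is set beside these counts, so that they do not set the members apart. Nearest to the threshold were Mrpl16, with a Flcn effect of 0.86 on chow and 0.16 on AMLN diet (difference -0.70, SE 0.18, limma adjusted p = 0.0702), and Mrpl54, with 0.67 and 0.05 (difference -0.62, SE 0.16, adjusted p = 0.0824). Mrpl47 followed, with -0.09 on chow and 0.52 on AMLN diet (difference 0.60, SE 0.20, adjusted p = 0.153). Without AMLN Control replicate 3, Mrpl16 (-0.81, adjusted p = 0.026) and Mrpl47 (0.77, adjusted p = 0.0272) were called. In that fit the calls over all genes rose from 144 to 334.

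Among mice on AMLN diet, the libraries labelled DKO were compared with LiFKO to ask how the response to Flcn loss differs when Tfe3 is missing too. This contrast shares the AMLN LiFKO libraries with the AMLN LiFKO comparison, so that opposite signs between them come in part from the same values. Lower in DKO were 5 members and higher were 2, against 5.97% and 5.05% of all genes, and the median was -0.05 beside 0.02 over all genes. The count of 7 became 3 without AMLN LiFKO replicate 1, and the 1523 calls over all genes became 1065. Mrps18a read 10.98, 11.07 and 10.87 in DKO, below each AMLN LiFKO library, a log2 difference of -0.48 (SE 0.11, limma adjusted p = 0.00986). Mrps36 read 8.43, 8.84 and 8.60 in DKO, likewise below LiFKO (-0.65, SE 0.15, adjusted p = 0.0126). Mrps36-ps1 (-0.55, adjusted p = 0.0204), Mrps27 (-0.36, adjusted p = 0.0349) and Mrpl17, a large-subunit protein (-0.30, adjusted p = 0.0435), were lower too. Mrpl14 read 11.16, 11.24 and 11.35 in DKO, above each LiFKO library (0.44, SE 0.10, adjusted p = 0.00925). Mrpl15 read 11.63, 11.92 and 11.75 in DKO and 11.29, 11.30 and 11.37 in LiFKO (0.45, SE 0.09, adjusted p = 0.00503). The DKO libraries of Mrpl45 were all below LiFKO, and replicate 3, at 10.59, was also below every AMLN Control library (-0.33, SE 0.12, adjusted p = 0.0844). Mrps18c differed by 0.26 (SE 0.08, adjusted p = 0.0661), and neither passed the test. Mrpl14, Mrpl15 and Mrps18a stayed called whichever library was omitted. Mrps27 was called in none of those 6 fits. In the same comparison 1 of 7 endothelial and 2 of 11 macrophage markers were lower, the latter with library means of 9.91 to 10.82 in LiFKO and 9.52 to 10.59 in DKO, and their part in the members' values was not tested.

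Against AMLN Control, the DKO libraries gave 0 calls among the members in limma, where 0.449% of all genes were higher and 0.203% lower (0.651% in either direction). The DKO libraries lay wholly above Control in 5 members and wholly below in 5, against 8.66% and 8.09% of all genes. At an unadjusted p under 0.05, 1 member was higher and 2 were lower. The share of all genes at that threshold is not given here, so that these counts do not set the members apart. The smallest p belonged to Mrps14 (-0.25, SE 0.09, adjusted p = 0.259), Mrpl27 (-0.30, SE 0.12, adjusted p = 0.303) and Mrps18a (0.25, SE 0.11, adjusted p = 0.324). The largest positive difference was in Mrps36, with 0.30 (SE 0.15, adjusted p = 0.4). A p that misses the threshold does not show that DKO and Control were alike.

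By subunit symbol, 11 of 46 Mrpl genes (23.9%) rose and 5 (10.9%) fell on chow. Of 30 Mrps genes 9 (30%) rose and 3 (10%) fell, against 12.5% and 13.2% of all genes. On AMLN diet 4 Mrpl genes (8.7%) rose and 3 (6.52%) fell, and 7 Mrps genes (23.3%) rose and 1 (3.33%) fell. The shares of all genes were 10.1% and 9.63%. Grouped by ancestry, 9 of the 46 members with a bacterial counterpart (19.6%) rose and 7 (15.2%) fell on chow, with a median of 0.02. Of the 30 without one, 11 (36.7%) rose and 1 (3.33%) fell, with a median of 0.08. On AMLN diet the counts were 3 up and 3 down with a counterpart (6.52% each, below the shares of all genes). Without a counterpart they were 8 up (26.7%) and 1 down (3.33%). No test was made of the difference between these classes. Mrps36, Mrps36-ps1 and Mrps18a, which rose on both diets, count in both groupings. By ancestry they were counted among the members without a counterpart. Mrps18a is nonetheless related to a bacterial protein, so that its place in that class is open to doubt. The product of Mrps18a sits in the large subunit, and that of Mrps36 is assigned to the oxoglutarate dehydrogenase complex. Whether Mrps36 and Mrps36-ps1 share reads is not known. Neither the classes by symbol nor those by ancestry are thus clean classes of the particle. The median over all 76 members of their deviation from each gene's mean stayed between -0.11 and 0.13 in every library.

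Genes that serve the mitochondrial ribosome were read from lists of known components. Beside each list below, the shares of all genes were 12.5% up and 13.2% down on chow and 10.1% and 9.63% on AMLN diet. In DKO against LiFKO they were 5.05% and 5.97%. One list of 8 genes held mitoribosomal proteins with other symbols and Oxa1l, the inner-membrane insertase that docks at the ribosome and receives the new chains. On chow 2 of the 8 rose, Ptcd3, a small-subunit protein (0.46, adjusted p = 0.000129), and Oxa1l (0.28, adjusted p = 0.0151). On AMLN diet Oxa1l (0.32, adjusted p = 0.00859) and Ptcd3 (0.25, adjusted p = 0.0142) rose again and Mrp63 fell (-0.33, adjusted p = 0.0303). Of 22 translation factors, 15 were measured. On chow 7 (46.7%) rose and on AMLN diet 6 (40%) with none falling, with medians of 0.29 and 0.30. The elongation factor Gfm1 differed by 0.89 on chow (SE 0.10, limma adjusted p = 2.6e-05), the recycling factor Gfm2 by 0.45 (adjusted p = 0.000282), the elongation factor Tufm by 0.53 (adjusted p = 0.000302), and Lrpprc, which stabilizes mitochondrial messenger RNAs, by 0.49 (adjusted p = 0.000419). In DKO against LiFKO 5 translation factors fell, among them Lrpprc (-0.48, adjusted p = 0.00135) and Taco1, a translational activator (-0.50, adjusted p = 0.00353).

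Of 33 genes for assembly of the particle and modification of its RNA, 26 were measured. On chow 3 rose and 3 fell (11.5% each), and on AMLN diet 3 rose (11.5%), all near the shares of all genes. C1qbp, which binds mitochondrial RNA and ribosomes, differed by 0.86 on chow (adjusted p = 5.74e-05), 0.64 on AMLN diet (adjusted p = 0.000779) and -0.53 in DKO against LiFKO (adjusted p = 0.00549). Mpv17l2, an assembly factor of the inner membrane, differed by 0.54 (adjusted p = 0.00311), 0.51 (adjusted p = 0.00611) and -0.52 (adjusted p = 0.00948) in the same comparisons. Of 19 tRNA synthetases that charge mitochondrial tRNAs, 4 (21.1%) rose and 1 (5.26%) fell on chow. On AMLN diet 3 (15.8%) rose and 1 (5.26%) fell. The phenylalanine enzyme Fars2 had the largest differences, 1.04 on chow (adjusted p = 9.68e-05), 1.33 on AMLN diet (adjusted p = 1.86e-05) and -0.90 in DKO against LiFKO (adjusted p = 0.000847). Of 8 measured genes of mitochondrial transcription and DNA replication, Polg, the catalytic DNA polymerase, rose on chow (0.62, adjusted p = 8.59e-05) and Polg2, its accessory subunit, fell (-1.05, adjusted p = 0.000234). On AMLN diet 3 of the 8 rose and none fell, Polg among them (0.55, adjusted p = 0.00034), and in DKO against LiFKO 2 fell, again with Polg (-0.32, adjusted p = 0.0232).

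Of 16 genes of protein import and mitochondrial mass, 9 (56.2%) rose and 1 (6.25%) fell on chow. On AMLN diet 5 (31.2%) rose and 1 (6.25%) fell. Timm44, which anchors the import motor, differed by 0.75 on chow (adjusted p = 7.89e-06), 0.78 on AMLN diet (adjusted p = 9.5e-06) and -0.66 in DKO against LiFKO (adjusted p = 6.9e-05). Of 12 measured regulators of mitochondrial biogenesis, 3 (25%) rose and 2 (16.7%) fell on chow, and 4 (33.3%) rose on AMLN diet. Ppargc1a, a coactivator that drives mitochondrial biogenesis, read 9.47, 10.18 and 9.32 in chow Control and 11.74, 12.26 and 11.64 in chow LiFKO. On AMLN diet it read 8.89, 9.26 and 9.01 in Control, 11.18, 11.36 and 11.18 in LiFKO and 9.95, 10.18 and 10.67 in DKO. No groups within a diet overlapped, with log2 differences of 2.23 on chow (SE 0.23, limma adjusted p = 8.45e-06), 2.18 on AMLN diet (adjusted p = 1.63e-05) and -0.97 in DKO against LiFKO (adjusted p = 0.013). Esrra, a nuclear receptor and partner of that coactivator, rose by 0.68 on chow (adjusted p = 0.00274) and by 0.69 on AMLN diet (adjusted p = 0.00337).

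The members' mixed directions can be set beside other large complexes. Of 37 complex I subunits, the respiratory chain's entry point for NADH, 19 (51.4%) rose and none fell on chow, with a median of 0.24. On AMLN diet 19 (51.4%) rose and none fell, with a median of 0.27. In DKO against LiFKO 6 of them fell. Of 79 cytosolic ribosomal proteins, none rose and 27 (34.2%) fell on chow, with a median of -0.30. On AMLN diet none rose and 9 (11.4%) fell, with a median of -0.13. In DKO against LiFKO 9 of these rose and none fell. These lists are described by count and median, and differences between them were not tested. Erythroid markers moved on chow as well, with 3 of 6 falling and a median of -1.20, while 2 of 7 endothelial and 1 of 11 macrophage markers rose, and of 10 hepatocyte markers 1 rose and 2 fell. The erythroid mean over the list lay between 11.87 and 12.96 in chow Control and between 11.10 and 11.66 in chow LiFKO, and the markers' part in the members' values was not tested.

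**Figure D3:**
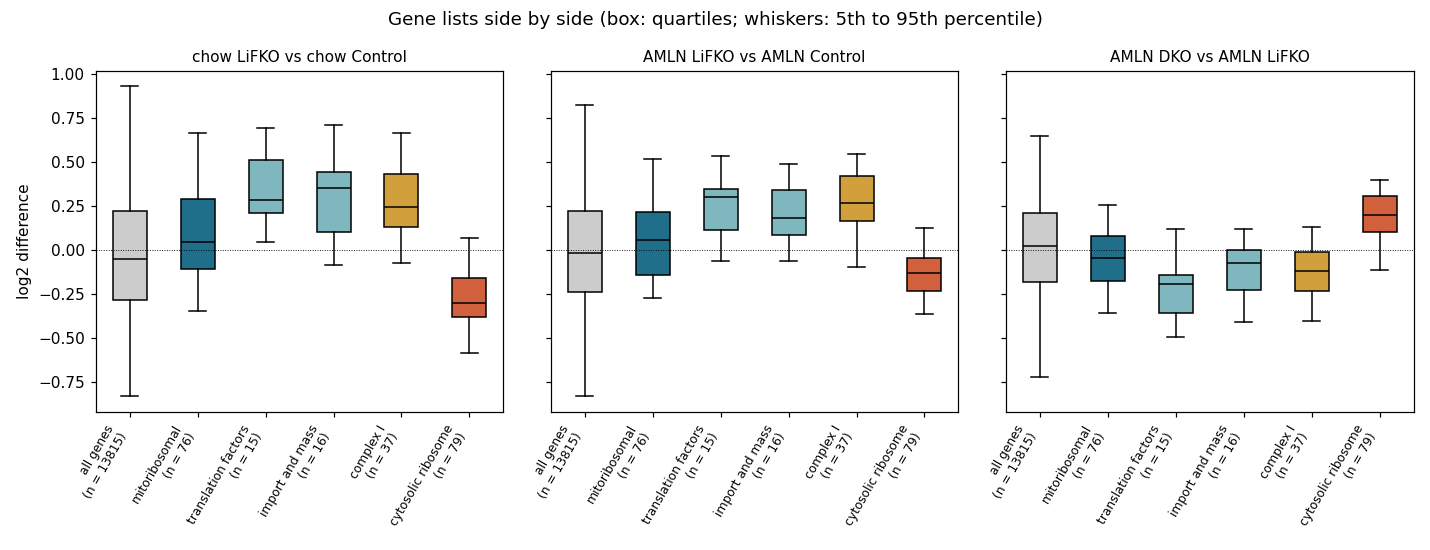
Log2 differences of all genes, the 76 mitoribosomal genes and 4 comparison lists in 3 comparisons; boxes give the quartiles and median, and whiskers the 5th to 95th percentile over genes. The mitoribosomal box straddles 0 in each panel, the complex I box lies above 0 on both diets, and the cytosolic ribosome box lies below 0 on both and above 0 in DKO against LiFKO.

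TFE3 binding was read from the authors' peak lists, which pool the ChIP libraries of a condition, so that no spread between libraries can be given and no test between conditions was possible. Scores are the authors' HOMER peak scores and were compared within a list alone. By the file headers, the pooled TFE3 sets of FPC Control, FPC Control+1c and FPC LiFKO include a library named as input and used one named as a TFE3 ChIP for background, so that these 3 lists may not hold what their labels say. The HA set of LiFKO+1c likewise includes a library named as a TFE3 ChIP. The 2 chow lists and the FPC LiFKO+1c list had no such mismatch. A gene counted as bound when a peak centre lay within 1 kb of its start, which could be placed for 66 members and for 9940 genes in all.

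On chow, 17 of 66 members (25.8%) had a TFE3 peak in the Control list and 44 (66.7%) in the LiFKO list, against 27.2% and 53.4% of all genes with a start. The LiFKO list is the longer, with 26445 peaks against 11385. Peaks in both lists were found for 16 members (24.2%, against 25.5% of all genes), in LiFKO alone for 28 (42.4%, against 27.8%) and in Control alone for 1. On FPC diet 14 members (21.2%) had a peak in Control and 35 (53.0%) in LiFKO, against 18.3% and 45.7% of all genes. Within 5 kb of the start these shares were 21.2% and 56.1% of members and 24.5% and 56.2% of all genes, so that the members no longer stood above all genes. The chow shares at 5 kb were 27.3% of members in Control and 69.7% in LiFKO, against 33.1% and 62.9% of all genes. With the 1c virus 16 members (24.2%) had a peak within 1 kb in Control and 42 (63.6%) in LiFKO, against 18.3% and 58.1%. At 5 kb the shares with 1c were 25.8% and 69.7%, against 24.5% and 68.2%. Over the 6 TFE3 lists, 13 members had no peak (19.7%, against 29.1% of all genes). A peak in every list was found for 6 (9.09%, against 8.27%): Mrpl11, Mrpl12, Mrpl43, Mrpl45, Mrps18b and Mrps21. The HA lists of nSREBP-1c had a peak at 0 of 66 member starts in each of Control+1c and LiFKO+1c, against 1.91% and 1.37% of all genes. A count of 0 does not show that nSREBP-1c is absent there. None of the 96 peaks in the authors' deposited table of differential TFE3 peaks, LiFKO+1c over LiFKO, had a member as its nearest gene, and by its header that table also used a library named as input for LiFKO.

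**Figure D4:**
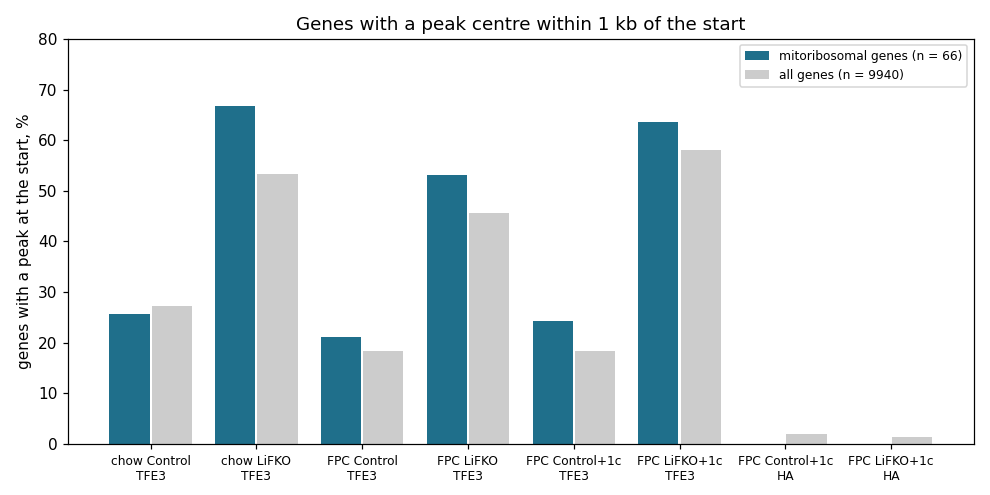
Share of genes with a peak centre within 1 kb of the start, in percent, for 66 mitoribosomal genes (blue) and 9940 genes in all (grey) in each of the 8 pooled peak lists. Members stand at 66.7% and all genes at 53.4% in the chow LiFKO list, and members stand at 0 in both HA lists.

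The member with the highest score on chow was Mrps18b, at 115 in the Control list and 190.1 in the LiFKO list, with its centre at -222 bases from the start in both. Its start lies 45 bases from that of Ppp1r10 on the opposite strand, so that the peak cannot be given to one of the genes. Mrpl45 followed, at 86.8 in the Control and 84.7 in the LiFKO list, with centres at -7 and -50 bases. It led the members in all FPC lists, at 84.1 in Control, 146 in LiFKO, 72.9 in Control+1c and 198 in LiFKO+1c. Mrpl11, part of the factor-binding region of the large subunit, came next on chow, with 37.4 and 61.0. After these in the chow LiFKO list were Mrpl27 (46.9), Mrpl34 (44.7) and Mrpl2 (43.4), all large-subunit proteins. The median score of that whole list was 18.5. On FPC diet Mrpl17 followed those 2 in LiFKO (61.1) and in LiFKO+1c (75.4). Mrps18a had a chow LiFKO peak of score 33.7, Mrps27 one of 22.9 and Mrps36 one of 23.8. Mrpl16 had a peak in chow Control (13.5) and none within the window in chow LiFKO.

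**Figure D5:**
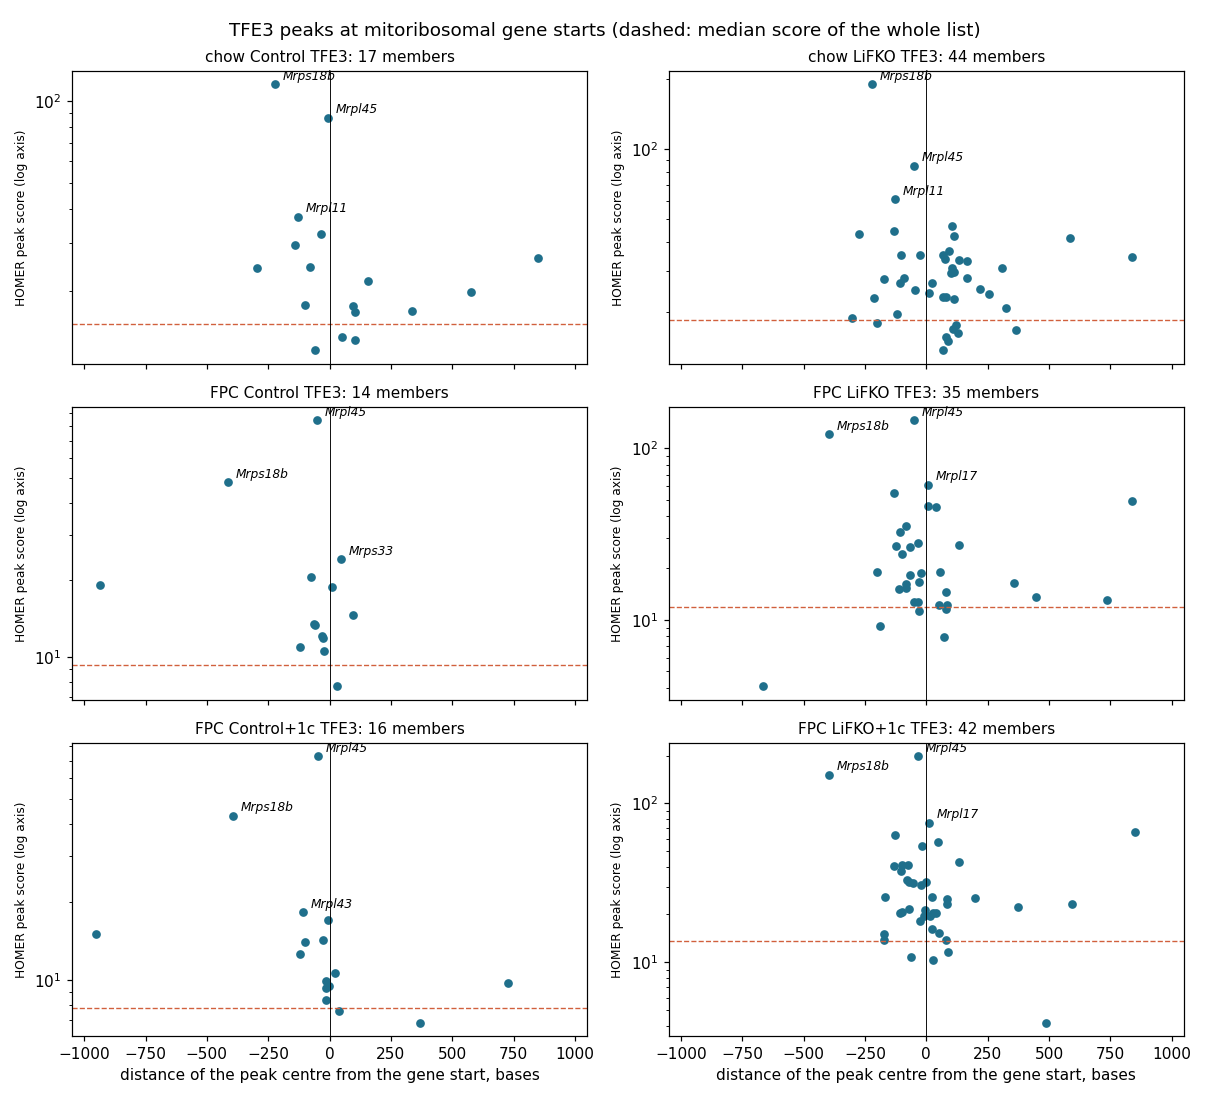
HOMER score (log axis) of the TFE3 peak at each member against the distance of its centre from the gene start in bases, negative before the start, in the 6 TFE3 lists; the dashed line is the median score of the whole list. Centres gather near the start, and Mrps18b and Mrpl45 are the 2 highest in every panel.

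Of the 44 members with a chow LiFKO peak, 14 rose and 6 fell on chow, with a median log2 difference of 0.08. Of all genes with a peak 15% rose and 14.3% fell, with a median of -0.04. Of the 22 members with a start but no such peak, 3 rose and 2 fell, with a median of 0.00, and of all genes without one 10.1% rose and 14.2% fell, with a median of -0.07. On AMLN diet 8 members with a peak rose and 3 fell, against 12.4% and 10.1% of all genes with one, and 1 member without a peak rose and none fell, against 7.44% and 10.9%. In DKO against LiFKO, 1 member with a peak was higher and 4 were lower, against 4.98% and 7.82% of all genes with one. Of the 22 without a peak, limma called 0, against 5.7% and 4.31%. At an unadjusted p under 0.05 there were 3, with no share of all genes at that threshold beside them. These counts are small and the difference between members with and without a peak was not tested. Of the 2 members with the highest scores, Mrps18b did not pass the expression test in any comparison and Mrpl45 rose on both diets.

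The promoter sequences of the 2 members with the highest chow LiFKO score and of the 2 members that hold a CLEAR element, the palindrome recognized by the TFEB and TFE3 family, are shown to set the letters beside the binding. Sequences are from RefSeq on GRCm38.p6, 5′ to 3′ on the gene's strand, from 250 bases before to 50 after the start. They are Mrps18b (chr17:35916391-35916690, minus strand), Mrpl45 (chr11:97315466-97315765, plus strand), Mrpl2 (chr17:46645971-46646270, plus strand) and Mrps18c (chr5:100798509-100798808, plus strand). Capitals mark matches, on either strand, to the 6 motifs searched.
Mrps18b: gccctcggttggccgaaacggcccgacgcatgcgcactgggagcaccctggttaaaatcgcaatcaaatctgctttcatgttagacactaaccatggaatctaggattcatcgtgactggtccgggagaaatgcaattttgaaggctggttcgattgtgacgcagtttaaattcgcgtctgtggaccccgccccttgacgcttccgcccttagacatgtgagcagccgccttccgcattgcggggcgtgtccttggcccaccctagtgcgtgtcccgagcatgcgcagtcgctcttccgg
Mrpl45: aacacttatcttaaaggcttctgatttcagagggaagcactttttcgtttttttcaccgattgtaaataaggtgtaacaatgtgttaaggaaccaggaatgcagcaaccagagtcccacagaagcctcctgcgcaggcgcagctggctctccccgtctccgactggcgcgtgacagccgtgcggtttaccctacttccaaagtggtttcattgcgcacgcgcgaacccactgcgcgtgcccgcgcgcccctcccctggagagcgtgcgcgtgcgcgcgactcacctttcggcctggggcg
Mrpl2: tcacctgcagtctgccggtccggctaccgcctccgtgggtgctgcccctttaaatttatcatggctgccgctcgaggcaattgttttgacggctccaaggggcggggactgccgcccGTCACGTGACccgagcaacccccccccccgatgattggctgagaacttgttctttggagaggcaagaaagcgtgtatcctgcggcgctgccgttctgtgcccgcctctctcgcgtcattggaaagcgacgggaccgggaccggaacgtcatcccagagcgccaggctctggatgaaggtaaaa
Mrps18c: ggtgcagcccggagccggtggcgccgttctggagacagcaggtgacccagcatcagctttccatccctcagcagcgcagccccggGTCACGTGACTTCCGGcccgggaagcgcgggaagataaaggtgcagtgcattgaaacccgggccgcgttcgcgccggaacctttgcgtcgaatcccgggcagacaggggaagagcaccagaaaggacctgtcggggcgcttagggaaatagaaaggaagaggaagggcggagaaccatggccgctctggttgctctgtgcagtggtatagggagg

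The CLEAR element is the E-box CACGTG with GT before it and AC after it, so that each CLEAR match is also an E-box match. It begins at base -133 from the start in Mrpl2 and at -165 in Mrps18c. In Mrps18c it runs on into a match to the ETS site CCGGAAGT on the opposite strand. Neither Mrps18b nor Mrpl45, which had the higher scores, holds any of the 6 motifs in this window. The window reaches 250 bases before the RefSeq start, and peak distances were taken from the authors' gene coordinates, so that the starts may differ. The Mrps18b centre lay at -222 bases on chow, but at -414 in FPC Control and -395 in FPC LiFKO. Letters beyond the window were not searched, so that binding without a motif cannot be read from this. In the chow LiFKO list the peak of Mrpl2 had a score of 43.4 and its centre at -276 bases. That of Mrps18c had a score of 28.0 and its centre at -92 bases. The FPC LiFKO and FPC LiFKO+1c centres lay at -99 and -130 bases for Mrpl2 and at -36 and 0 for Mrps18c. Mrpl2 encodes a protein of the large subunit near the peptidyl transferase centre and read 11.50, 11.37 and 11.47 in chow Control and 11.43, 11.62 and 11.53 in chow LiFKO. Those groups overlapped (0.08, SE 0.08, limma adjusted p = 0.54), whereas Mrps18c fell on both diets. The same element therefore stands before one member that fell and one that did not pass the test. Mrps18c begins 27 bases from Helq on the opposite strand, so that its element cannot be given to one gene.

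Over 66 member promoters and 9905 promoters in all, searched on both strands, CLEAR was found in 2 members (3.03%) and 0.777% of all. The E-box was found in 5 (7.58%, against 10.3%): Mrpl2, Mrpl20, Mrpl36, Mrpl37 and Mrps18c. The M-box TCATGTGA, another element of this family, was in none (0.818% of all). Motifs of factors linked to nuclear genes of mitochondria were searched too. The ETS site CCGGAAGT, bound by GABP among others, was in 11 members (16.7%, against 8.36%), the YY1 site AAGATGGCG in 8 (12.1%, against 3.27%), and the palindromic NRF1 site in 3 (4.55%, against 2.08%). The YY1 site was in Mrpl35, Mrpl36, Mrpl37, Mrpl42, Mrps11, Mrps18a, Mrps24 and Mrps27. A match is a description of letters, and no match says nothing on whether a factor binds.

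The starts themselves were often shared. Of the 66 members, 22 (33.3%) had the start of another gene on the opposite strand within 1 kb, against 13.8% of all genes. Mrps18c began 27 bases from Helq, Mrps27 108 bases from Ptcd2, Mrpl47 157 bases from the complex I gene Ndufb5 and Mrps12 171 bases from Sars2, the mitochondrial serine tRNA synthetase. Mrpl46 and Mrps11 face each other 412 bases apart, so that a single chow LiFKO peak was counted at both. At these starts a peak, and without a stated strand setting some reads, cannot be given to one gene.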

How the data were processed

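The authors deposited RNA-seq values as log2 expression (15 libraries, 13815 genes). Tools named for RNA-seq in the submitters' processing notes are bcl2fastq 2.17, Trimmomatic 0.32, STAR 2.6.0c, SAMtools, featureCounts and limma on mm9. The same highest value (21.47) in every library shows quantile normalization. The offset added before the logarithm, the strand setting and the depth are not given in the sources used here. Deposited peak lists give HOMER peak scores of pooled libraries per the file headers, with Bowtie2 2.2.8 and HOMER 4.11 on chow and Bowtie2 2.2.6 and HOMER 4.4 on FPC diet per the submitters' processing notes. The authors' table of differential peaks holds log2 fold changes, of which the count of peaks was used.

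R 4.3.3 and limma 3.58.1 gave the tests: 1 coefficient for each group, all 15 libraries fitted together, leaving 10 residual degrees of freedom, 7 contrasts, eBayes with trend, two-sided, Benjamini-Hochberg over all genes, called under 0.05. The p-values measure the spread between libraries, which may be technical. Starts came from coordinates in the table and strands from a RefSeq promoter table, which left 10 members without a start: Mrpl13, Mrpl15, Mrpl19, Mrpl38, Mrpl4, Mrpl54, Mrps28, Mrps34, Mrps35 and Mrps36-ps1. For 3 members with several promoters the first was used. Peaks were handled in Python 3.11.15 with pandas 2.3.3 and numpy 2.4.6, and plots drawn with matplotlib 3.10.9. Both steps were tested on simulated data.

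Same-numbered libraries of chow Control and LiFKO had residual correlations of 0.113, 0.17 and 0.237 and were read as possible pairs there. Elsewhere same-numbered pairs ranged from -0.185 to 0.231 and were not, although those of AMLN Control and DKO were all positive (0.0445, 0.0993 and 0.144). Of the 15 libraries, 7 had their best match in a library of the same number, so that the pairing is uncertain. The block was coded to sum to 0 over replicate numbers, which keeps group means; this coding replaced another after first results were seen.

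The members and lists were chosen with earlier results of these data known. Values were given for up to 6 members called up and 6 called down with the smallest p in each comparison, and always for Mrpl12, Mrps36, Mrps30 and the Mrps18 genes. Of other lists, up to 4 genes with the smallest p could be named. The promoters of Mrpl2 and Mrps18c were picked after their motif matches were seen. Alternatives were other moderation, only the groups compared, a filter on low values, recentring, cyclic loess, replicate blocks, each library left out, a threshold of 0.01, and other peak windows.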

Additional observations from a re-analysis of the deposited data

Results flagged for a closer look

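Among 156 genes listed beside the members, 3 (1.92%, against 1.04% of all genes) had a Flcn effect that differed between diets in the limma interaction test, each near the adjusted threshold. Gabpa and Gabpb2, subunits of the ETS factor GABP, were lower in LiFKO than in Control on chow and higher on AMLN diet. Gabpa read 11.98, 11.98 and 11.91 in chow Control, 11.72, 11.77 and 11.70 in chow LiFKO, 11.60, 11.53 and 11.57 in AMLN Control and 11.83, 11.74 and 11.79 in AMLN LiFKO, with a difference of effects of 0.44 (SE 0.10, adjusted p = 0.0483). For Gabpb2 the difference of effects was 0.49 (SE 0.11, adjusted p = 0.0473), and the chow Control libraries were the highest, at 11.51, 11.55 and 11.53. Mettl15, a methyltransferase of the small-subunit RNA, read 7.21, 6.61 and 6.88 in chow Control and 8.38, 8.09 and 8.81 in chow LiFKO, and 7.76, 7.70 and 7.79 against 8.02, 7.62 and 8.17 on AMLN diet. Its difference of effects was -1.34 (SE 0.30, adjusted p = 0.0494). In all 3 genes AMLN Control also differed from chow Control, by -0.39 in Gabpa, -0.52 in Gabpb2 and 0.85 in Mettl15.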

How the results depend on the processing

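Among the members followed singly, which were those picked by the naming rule above and not all called members, no call reversed under the alternative fits. Counts of called members that moved by over 1.5 times are given below. For omitted libraries and replicate blocks the counts that moved less are given too. At a threshold of 0.01 the counts were 13 on chow, 6 on AMLN diet, 2 for diet in Control, 0 for diet in LiFKO and 3 for DKO against LiFKO. With only the compared groups fitted they were 9 on AMLN diet, 4 for diet in Control and 0 for diet in LiFKO, which also gave 0 without the trend. With each library left out in turn they ranged from 16 to 23 on chow, 8 to 15 on AMLN diet, 4 to 8 for diet in Control, 0 to 1 for diet in LiFKO, 3 to 8 for DKO against LiFKO, and 0 to 2 for the difference between diets. Calls over all genes ranged, in the same order, from 2695 to 2908, 2046 to 2398, 1938 to 3257, 175 to 497, 991 to 1280 and 27 to 334. The replicate block shared by all groups gave 25 calls on chow, 16 on AMLN diet, 0 for diet in LiFKO and 7 for DKO against LiFKO, and the block within a diet gave 26, 16, 1 and 8. For diet in Control the 2 blocks gave 8 and 10. The 60 calls of members, over 5 comparisons, were refitted 360 times with a library left out and lost 129 times: 55 on chow, 30 on AMLN diet, 25 for diet in Control, 5 for diet in LiFKO and 14 for DKO against LiFKO. The block shared by all groups lost 8 calls and added 4, and the block within a diet lost 4 and added 5. Within 5 kb of the start the members' TFE3 shares were 21.2% in FPC Control and 56.1% in FPC LiFKO, against 24.5% and 56.2% of all genes. They were 27.3% in chow Control and 69.7% in chow LiFKO, against 33.1% and 62.9%. The HA counts of 0 became 1 in Control+1c with the whole gene as window, which was added after the data were seen, and 1 in LiFKO+1c within 5 kb of the start. Recentring, cyclic loess and the low-value filter kept every member count within 1.5 times of its main value. Depth limits cannot be given without counts.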
